A study of Homo sapiens with 13 samples.

Results

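GADD45A, BTG2, PLK2, PLK3, XPC, DDB2, POLH, RRM2B, PHLDA3 and ZMAT3 are 10 target genes of the transcription factor p53 whose products act in growth arrest and DNA repair. They were taken by symbol from a table of 60591 genes, with earlier results of these data known. Each of the 10 was among the 19514 genes with enough reads to be tested. RNA was sequenced from cells of the human line TE11, labelled as esophageal squamous carcinoma and kept in DMEM with fetal bovine serum, after 48 h of treatment. The combination group received 10 µM chloroquine with 25 µM 5-fluorouracil (5-FU, n = 3), the 5-FU group 25 µM 5-FU (n = 3), the chloroquine group 10 µM chloroquine (n = 3) and the vehicle group 0.1% DMSO (n = 4). 5-FU is a pyrimidine analogue that blocks thymidylate synthase and is built into RNA and DNA, and chloroquine is a lysosomal agent that blocks autophagy. The labels name 1 cell line and do not call the libraries of a group separate cultures. The spread behind each p-value is thus that between these libraries and may be technical.

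p53 is stabilised by DNA damage and by other stresses, such as disturbed ribosome assembly, and then binds sites in or near its target genes. Part of its programme stops the cell cycle, and another part supplies repair factors and nucleotides. GADD45A binds PCNA and the CDK1 kinase, and BTG2 is an antiproliferative protein that recruits the CCR4-NOT deadenylase to mRNAs. PLK2 and PLK3 are polo-like kinases induced by stress. XPC and DDB2 recognise damaged DNA in nucleotide excision repair, POLH copies past ultraviolet lesions, and RRM2B is the p53-inducible small subunit of ribonucleotide reductase. PHLDA3 competes with the kinase AKT1 for membrane lipids, and ZMAT3 is a zinc finger protein that binds RNA.

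The 13 libraries held between 17834539 and 23679833 counts, and the lowest count of any of the 10 genes in any library was 43, for PLK3. In 5 libraries (combination 2, 5-FU 2, chloroquine 1, chloroquine 2 and vehicle 4) the fibroblast gene COL1A2 had 153 to 741 counts, against 1 to 7 in the other 8. The summed counts of 6 fibroblast markers ran from 291 to 665 in combination, 612 to 889 in 5-FU, 210 to 2092 in chloroquine and 202 to 2529 in vehicle libraries. Those of 3 globin genes ran from 48 to 57 in combination, 53 to 76 in 5-FU, 23 to 207 in chloroquine and 13 to 291 in vehicle libraries. Those of 5 leukocyte genes ran from 126 to 146 in combination, 141 to 183 in 5-FU, 99 to 212 in chloroquine and 54 to 203 in vehicle libraries. Markers of endothelium summed to at most 6 counts and those of pancreatic acini to at most 42. The part of these transcripts in the results below was not tested, and each result of the 10 genes is also given for the 8 or the 5 libraries where that changes its call. Among the genes listed for squamous epithelium, KRT4 was at 0 in every library. KRT5, KRT6A, TP63 and IVL did not exceed 3 counts, KRT13 did not exceed 5 and KRT14 did not exceed 12. Of the other, less specific genes of that list, SOX2 had 192 to 353, KRT18 747 to 1361, KRT8 54 to 389 and EPCAM 27 to 74 counts. The defining keratins of squamous epithelium were thus at or near 0 in these libraries.

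A search of the 250 bases before the RefSeq transcription start (GRCh38.p14) found a pair of p53 consensus decamers in the windows of PLK2 and ZMAT3, out of 7 of the 10 genes that had a window. GADD45A, RRM2B and PHLDA3 had none. The windows were read along the strand of the gene, and the consensus of the pair reads the same on the other strand. A spacer of 0 to 13 bases and at most 3 mismatches over the 20 letters were allowed, and 10.7% of all 35116 windows held such a pair. These sequences are shown because they are the letters nearest to the p53 consensus in the promoters searched, with the decamers in capitals and the spacer in lower case.
PLK2: AGACTTGCTTcccGGCCACGCGC
ZMAT3: GGGCCTGCTCcgccaaGCACATGCGC
The PLK2 stretch lies at chr5:58460196-58460218 on the minus strand, from 132 to 110 bases before the start, with 0 mismatches in the upstream decamer and 3 in the downstream one. The ZMAT3 stretch lies at chr3:179071867-179071892, also on the minus strand, from 83 to 58 bases before the start, with 1 and 2 mismatches. None of the 7 genes had a pair with at most 2 mismatches, which 2.49% of all windows held. GGGCGG or its complement CCGCCC stood in a window of each of the 7 genes, against 42.6% of all windows. DDB2 and ZMAT3 had 2 windows each, of which not both held it. CATG stood in a window of PLK3 and of ZMAT3, against 47.6% of windows. TATAA, looked for on the strand of the gene only, stood in the window of PLK2, against 13.6% of windows. The other window of ZMAT3 held neither CATG nor the pair. The shares count windows and not genes. These matches are letters in a window and do not show binding.

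Most of the 10 genes rose under each treatment, and all 10 rose under 5-FU. Against vehicle, 9 of the 10 genes were called higher and 0 lower in the combination group, 10 higher and 0 lower in the 5-FU group, and 7 higher and 0 lower in the chloroquine group, called meaning an adjusted p under 0.05 in edgeR's quasi-likelihood test with Benjamini-Hochberg adjustment over all 19514 genes. Among all genes tested, 28.1% were called higher and 27.2% lower in combination, 30.8% higher and 29.5% lower in 5-FU, and 20.3% higher and 19.1% lower in chloroquine. The median log2 fold change of the 10 genes was 1.25 in combination, 1.00 in 5-FU and 0.38 in chloroquine, against medians over all genes of 0.0057, 0.010 and 0.023. These 3 comparisons share the 4 vehicle libraries. Scaling by library size alone moved the median of all genes by 0.148 (combination), 0.192 (5-FU) and 0.0953 (chloroquine) on the log2 scale. With that scaling 67.0% of the calls were upward in combination, 69.3% in 5-FU and 69.3% in chloroquine, against 50.8%, 51.1% and 51.4% with TMM scaling. Bulk counts are shares of a library, so fewer cells of a kind and less RNA per cell cannot be told apart.

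**Figure D1:**
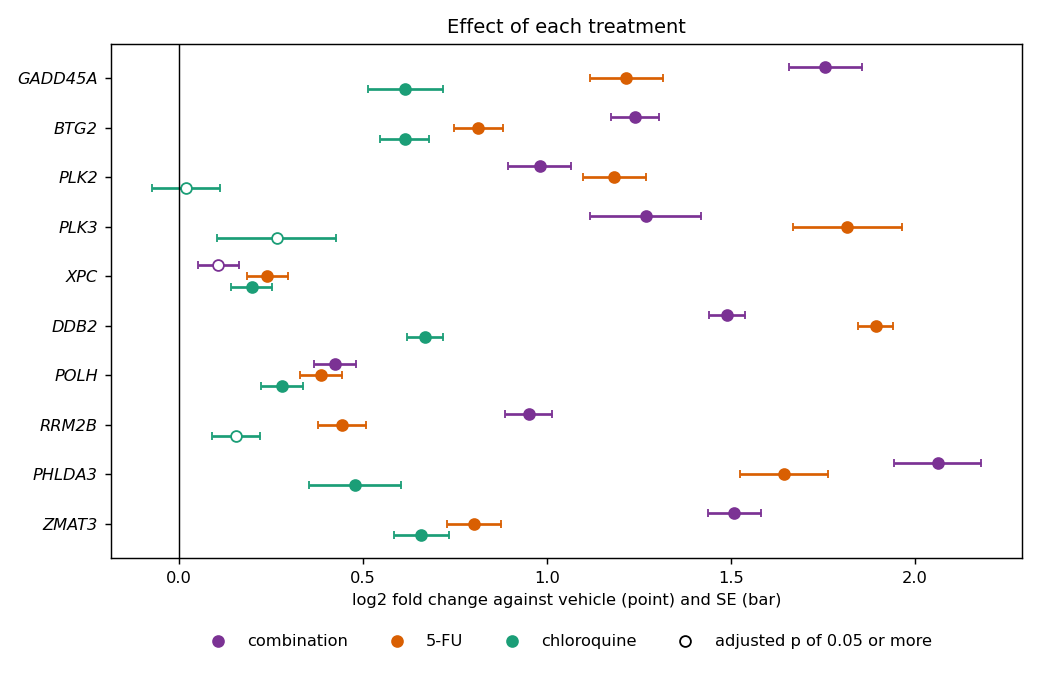
Log2 fold changes of the 10 genes against vehicle with their standard errors, for combination (n = 3), 5-FU (n = 3) and chloroquine (n = 3) against vehicle (n = 4). Filled symbols passed an adjusted p of 0.05 in edgeR's quasi-likelihood test and open ones did not. PHLDA3 has the highest value in combination (2.06) and DDB2 in 5-FU (1.89), while the 3 open chloroquine symbols are PLK2, PLK3 and RRM2B and the open combination symbol is XPC.

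GADD45A and BTG2 had the same order of groups, combination above 5-FU, 5-FU above chloroquine and chloroquine above vehicle. GADD45A had 132, 122 and 148 CPM (reads per 1000000 counts of the library, scaled by TMM) in the combination libraries, 99.6, 86.4 and 90.4 CPM in the 5-FU libraries, 56.5, 56.5 and 69.6 CPM in the chloroquine libraries, and 45.2, 40.4, 39.1 and 34.1 CPM in the vehicle libraries. No 2 of these groups overlapped. Its log2 fold change against vehicle was 1.76 ± 0.099 (SE, adjusted p = 4.2e-09) in combination, 1.22 ± 0.10 (adjusted p = 1.25e-07) in 5-FU and 0.62 ± 0.10 (adjusted p = 0.000291) in chloroquine. Combination exceeded 5-FU by 0.54 ± 0.10 (adjusted p = 0.000888) and chloroquine by 1.14 ± 0.11 (adjusted p = 7.71e-07), and 5-FU exceeded chloroquine by 0.60 ± 0.11 (adjusted p = 0.000229).

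BTG2 had 50.6, 52.4 and 52.9 CPM in combination, 36.4, 40.7 and 39.0 CPM in 5-FU, 32.9, 32.9 and 35.3 CPM in chloroquine, and 23.6, 22.9, 19.5 and 22.2 CPM in vehicle libraries. The groups again stood apart, with a narrow gap between the lowest 5-FU and the highest chloroquine library. Against vehicle BTG2 rose by 1.24 ± 0.065 in combination (adjusted p = 2.08e-09), by 0.81 ± 0.066 in 5-FU (adjusted p = 1.2e-07) and by 0.61 ± 0.067 in chloroquine (adjusted p = 9.55e-06). Combination exceeded 5-FU by 0.43 ± 0.068 (adjusted p = 0.000216) and chloroquine by 0.63 ± 0.069 (adjusted p = 3.87e-06). The 5-FU group exceeded chloroquine by 0.20 ± 0.069 (adjusted p = 0.0243), a call lost with no filter on low counts (0.186), with the 2 groups fitted alone (0.197), in the 8 libraries (0.0871) and without chloroquine 1 (0.179), chloroquine 2 (0.18) or 5-FU 2 (0.176).

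The kinases PLK2 and PLK3 rose with 5-FU, with or without chloroquine. PLK2 had 14.4, 16.5 and 15.4 CPM in combination, 16.2, 19.4 and 17.7 CPM in 5-FU, 7.85, 7.96 and 7.97 CPM in chloroquine, and 7.80, 7.82, 6.96 and 8.71 CPM in vehicle libraries. Chloroquine and vehicle libraries overlapped, and so did combination and 5-FU libraries, while these pairs of groups were far apart. PLK2 was higher than vehicle by 0.98 ± 0.085 in combination (adjusted p = 2.78e-07) and by 1.18 ± 0.085 in 5-FU (adjusted p = 3.26e-08), and its value in chloroquine was 0.020 ± 0.092 (adjusted p = 0.889). Combination differed from 5-FU by -0.20 ± 0.085 (adjusted p = 0.0746), which passed the test with library size alone (-0.247), with a filter at 10 CPM (-0.24), without 5-FU 1 (-0.267) and with a term for the 8 against the 5 libraries (-0.203). Against chloroquine, PLK2 was higher by 0.96 ± 0.092 in combination (adjusted p = 1.06e-06) and by 1.16 ± 0.091 in 5-FU (adjusted p = 1.19e-07).

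PLK3, which had the lowest read counts of the 10, had 6.97, 5.66 and 6.45 CPM in combination, 11.4, 7.82 and 8.73 CPM in 5-FU, 3.17, 2.67 and 3.73 CPM in chloroquine, and 2.47, 2.45, 2.97 and 2.63 CPM in vehicle libraries. All 5-FU libraries exceeded all combination libraries, and the chloroquine and vehicle libraries overlapped. Against vehicle PLK3 rose by 1.27 ± 0.15 in combination (adjusted p = 5.93e-06) and by 1.82 ± 0.15 in 5-FU (adjusted p = 1.16e-07), and had a value of 0.27 ± 0.16 in chloroquine (adjusted p = 0.212). Its level in combination was lower than in 5-FU by 0.55 ± 0.15 on the log2 scale (-0.55, adjusted p = 0.00906). That call was lost without 5-FU 1, the highest library (-0.383, adjusted p = 0.0506), and in the 5 libraries (-0.465). Against chloroquine it was higher by 1.00 ± 0.16 in combination (adjusted p = 0.000119) and by 1.55 ± 0.16 in 5-FU (adjusted p = 1.43e-06).

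**Figure D2:**
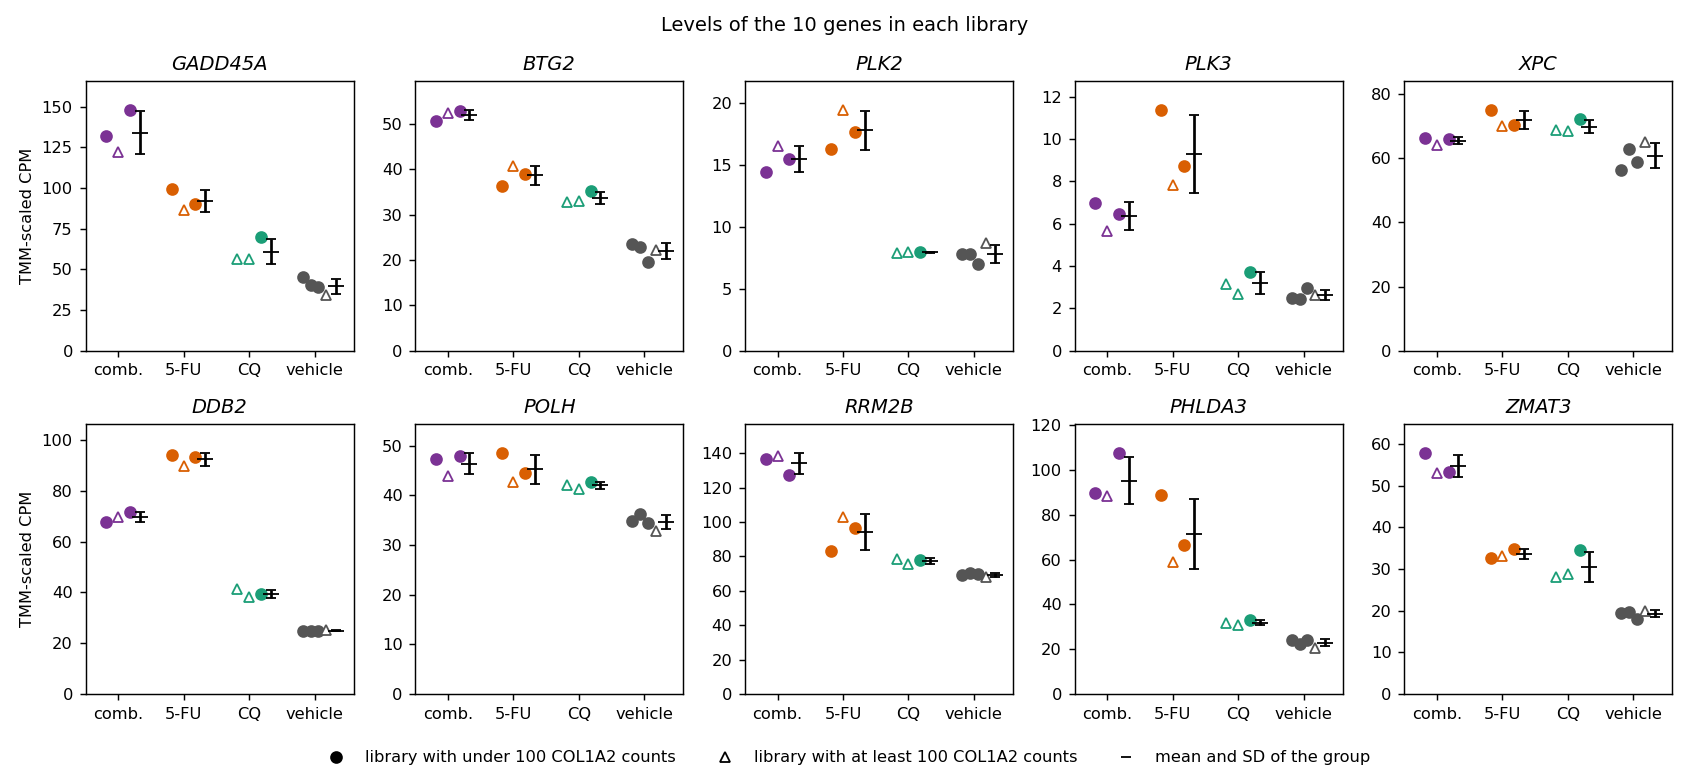
CPM of each of the 10 genes in each library, with combination (comb.), 5-FU, chloroquine (CQ) and vehicle from left to right and bars for the mean and SD of each group (n = 3, 3, 3 and 4). Open triangles are the 5 libraries with at least 100 COL1A2 counts and filled circles the other 8. GADD45A, BTG2 and ZMAT3 are highest in combination, DDB2 and PLK3 in 5-FU, and combination and vehicle libraries overlap for XPC.

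Of the 2 damage sensors of nucleotide excision repair, DDB2 rose in all 3 treatments and XPC in the single-drug groups. DDB2, the small subunit of the ultraviolet-damaged DNA-binding complex, had 67.9, 69.8 and 71.7 CPM in combination, 94.2, 89.6 and 93.3 CPM in 5-FU, 41.2, 38.1 and 39.2 CPM in chloroquine, and 24.7, 24.9, 24.7 and 25.0 CPM in vehicle libraries. The 4 groups were clearly separate, with 5-FU and not combination at the top. DDB2 rose against vehicle by 1.49 ± 0.048 in combination (adjusted p = 2.64e-11), by 1.89 ± 0.048 in 5-FU (adjusted p = 2.34e-12) and by 0.67 ± 0.049 in chloroquine (adjusted p = 3.55e-07). In combination it was lower than in 5-FU (-0.40 ± 0.048, adjusted p = 2.08e-05) and higher than in chloroquine (0.82 ± 0.050, adjusted p = 1.71e-08). The 5-FU group exceeded chloroquine by 1.23 ± 0.050 (adjusted p = 2.89e-10). None of these 6 calls was lost under any of the alternative settings run, and the combination value against 5-FU ranged from -0.448 to -0.361 over them.

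XPC, which opens the global branch of the same repair pathway, had 66.4, 64.1 and 65.9 CPM in combination, 75.0, 70.1 and 70.3 CPM in 5-FU, 68.6, 68.5 and 72.2 CPM in chloroquine, and 56.4, 62.8, 58.9 and 65.1 CPM in vehicle libraries. Combination and vehicle libraries overlapped, whereas all 5-FU and all chloroquine libraries exceeded all vehicle libraries. Its log2 fold change against vehicle was 0.11 ± 0.056 (adjusted p = 0.118) in combination, 0.24 ± 0.056 (adjusted p = 0.00175) in 5-FU and 0.20 ± 0.056 (adjusted p = 0.0114) in chloroquine. The combination value passed the test with library size alone (0.255), with a 10 CPM filter (0.171) and without vehicle 4 (0.143). The 5-FU call was lost in the 5 libraries (0.103) and its value was 0.432 with library size alone, and the chloroquine call was lost without chloroquine 3 (0.158) and in the 5 libraries (0.0769). XPC had values of -0.13 ± 0.059 in combination against 5-FU (adjusted p = 0.0915, called with library size alone at -0.177 and with the 10 CPM filter at -0.17), -0.091 ± 0.059 in combination against chloroquine (adjusted p = 0.22) and 0.042 ± 0.059 in 5-FU against chloroquine (adjusted p = 0.579). Exons of XPC share 318 bases, 6.63% of its exonic length, with LSM3 on the opposite strand. LSM3 had 2133 to 4749 counts, against 1026 to 1764 for XPC itself. On the opposite strand XPC exons also share 1140 bases (23.8%) with AC093495.1, at 12 to 31 counts, and 413 bases (8.61%) with AC090004.1, at 5 to 17 counts. A directional kit was used but no source used here gives the strand setting of the counting, so reads there may not be told apart.

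POLH, the translesion polymerase eta, rose by at most 0.42 on the log2 scale in the 3 treatments. It had 47.2, 43.9 and 47.9 CPM in combination, 48.4, 42.7 and 44.5 CPM in 5-FU, 42.0, 41.3 and 42.7 CPM in chloroquine, and 34.8, 36.2, 34.5 and 32.8 CPM in vehicle libraries. Each treated library exceeded each vehicle library, the combination and 5-FU libraries overlapped, and so did the 5-FU and chloroquine libraries at their edge. POLH rose against vehicle by 0.42 ± 0.057 in combination (adjusted p = 2.04e-05), by 0.39 ± 0.057 in 5-FU (adjusted p = 4.02e-05) and by 0.28 ± 0.058 in chloroquine (adjusted p = 0.00152). The chloroquine call was lost in the 8 libraries (0.278, adjusted p = 0.0504), where the chloroquine group has 1 library. Between treatments the values were 0.036 ± 0.060 for combination against 5-FU (adjusted p = 0.686), 0.14 ± 0.061 for combination against chloroquine (adjusted p = 0.0638) and 0.11 ± 0.061 for 5-FU against chloroquine (adjusted p = 0.155). Combination against chloroquine passed the test with the size factors of DESeq2 (0.152), library size alone (0.195), the 10 CPM filter (0.153), the 2 groups fitted alone (0.152), and without 5-FU 1 (0.152), 5-FU 2 (0.153) or combination 2 (0.19), and 5-FU against chloroquine passed with library size alone (0.202) and the 10 CPM filter (0.154).

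RRM2B, which supplies deoxynucleotides outside S phase, was highest where the drugs were joined. It had 136, 138 and 127 CPM in combination, 82.8, 103 and 96.6 CPM in 5-FU, 78.2, 75.4 and 78.1 CPM in chloroquine, and 69.0, 70.5, 69.9 and 67.7 CPM in vehicle libraries. The 4 groups did not overlap, and the chloroquine libraries lay only just above the vehicle libraries. RRM2B rose against vehicle by 0.95 ± 0.064 in combination (adjusted p = 2.24e-08) and by 0.44 ± 0.065 in 5-FU (adjusted p = 3.47e-05), and its value in chloroquine was 0.16 ± 0.065 (adjusted p = 0.0712). That last value passed the test with library size alone (0.253), with the 10 CPM filter (0.21), with the 2 groups fitted alone (0.169), without 5-FU 1 (0.14) and in the 5 libraries (0.184). Combination exceeded 5-FU by 0.51 ± 0.068 (adjusted p = 5.39e-05) and chloroquine by 0.79 ± 0.069 (adjusted p = 4.2e-07), and 5-FU exceeded chloroquine by 0.29 ± 0.069 (adjusted p = 0.00272), a call lost in the 8 libraries (0.195).

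PHLDA3, a repressor of AKT signalling, had the highest log2 fold change of the 10 genes in combination. It had 89.8, 88.5 and 108 CPM in combination, 88.9, 58.9 and 66.6 CPM in 5-FU, 31.7, 30.9 and 32.9 CPM in chloroquine, and 24.02, 22.5, 24.03 and 20.7 CPM in vehicle libraries. 5-FU 1 lay within the range of the combination libraries and above the other two 5-FU libraries, so those groups overlapped. PHLDA3 rose against vehicle by 2.06 ± 0.12 in combination (adjusted p = 4.79e-09), by 1.64 ± 0.12 in 5-FU (adjusted p = 3.65e-08) and by 0.48 ± 0.12 in chloroquine (adjusted p = 0.00731). Of all tested genes, 1.75% had a higher value than PHLDA3 in combination and 4.00% in 5-FU. Combination exceeded 5-FU by 0.42 ± 0.12 (adjusted p = 0.0127), a call lost without combination 3 (0.321) or without 5-FU 3 (0.364). Against chloroquine it was higher by 1.58 ± 0.13 in combination (adjusted p = 1.85e-07) and by 1.17 ± 0.13 in 5-FU (adjusted p = 2.55e-06). Exons of PHLDA3 share 598 bases, 19.1% of its exonic length, with AC096677.2 on the same strand, which had 0 counts in every library.

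ZMAT3 had 57.9, 53.1 and 53.4 CPM in combination, 32.6, 33.2 and 34.9 CPM in 5-FU, 28.05, 28.8 and 34.6 CPM in chloroquine, and 19.5, 19.7, 18.04 and 19.9 CPM in vehicle libraries. The combination libraries stood well above all others, the vehicle libraries below, and the 5-FU and chloroquine libraries overlapped. Against vehicle it rose by 1.51 ± 0.072 in combination (adjusted p = 8.17e-10), by 0.80 ± 0.074 in 5-FU (adjusted p = 3.75e-07) and by 0.66 ± 0.075 in chloroquine (adjusted p = 1.23e-05). Combination exceeded 5-FU by 0.71 ± 0.074 (adjusted p = 6.87e-06) and chloroquine by 0.85 ± 0.075 (adjusted p = 5.17e-07). The value for 5-FU against chloroquine was 0.14 ± 0.076 (adjusted p = 0.127), which passed the test with library size alone (0.24), the 10 CPM filter (0.191), without chloroquine 3 (0.251) and in the 5 libraries (0.217).

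The 10 genes did not share a direction when chloroquine was added to 5-FU. In combination against 5-FU, 5 genes were called higher (GADD45A, BTG2, RRM2B, PHLDA3 and ZMAT3), 2 lower (PLK3 and DDB2) and 3 were not called, with 20.2% of all genes called higher and 18.3% lower. Over all genes 52.4% of these calls were upward with TMM, against 44.2% with library size alone. In combination against chloroquine, 8 genes were called higher and 0 lower, with 24.8% of all genes higher and 25.7% lower. In 5-FU against chloroquine, 7 were called higher and 0 lower, with 27.1% of all genes higher and 27.6% lower, and 59.8% of the calls over all genes upward with library size alone against 49.6% with TMM. The medians of the 10 genes were 0.23, 0.84 and 0.44 in these comparisons, against 0.025, -0.013 and -0.011 over all genes. Same-numbered combination and 5-FU libraries varied together. Library 2 of both groups is among the 5 with at least 100 COL1A2 counts, so pairing by number cannot be told apart from that difference. With the replicate number as a block the same counts of 5 higher and 2 lower were called.

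Whether chloroquine acted on these genes alike with and without 5-FU was tested as an interaction, the effect of chloroquine in the presence of 5-FU minus its effect in its absence. Of the 10 genes, 1 was called higher and 4 lower, against 20.6% and 19.3% of all genes, and the median was -0.21 against -0.0021 over all genes. DDB2 had the largest interaction of the 10: chloroquine went with a log2 change of -0.40 with 5-FU and of 0.67 without it, an interaction of -1.07 ± 0.069 (adjusted p = 1.1e-07). It was -1.08 in the 8 libraries and -1.03 in the 5. PLK3 had -0.55 with 5-FU and 0.27 without it, an interaction of -0.81 ± 0.22 (adjusted p = 0.00871), -1.06 in the 8 libraries and, no longer called, -0.617 in the 5.

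XPC and POLH had smaller negative interactions. For XPC the chloroquine effect was -0.13 with 5-FU and 0.20 without it, and the interaction was -0.33 ± 0.081 (adjusted p = 0.00497), at -0.207 in the 5 libraries. POLH had an interaction of -0.25 ± 0.083 (adjusted p = 0.0304), with a chloroquine effect of 0.036 with 5-FU and 0.28 without it. The POLH call did not hold with no filter (-0.225), with the replicate block (-0.22, adjusted p = 0.0755), in the 8 libraries (-0.242) or without any 1 of 9 libraries (vehicle 3 and 4, chloroquine 1, 2 and 3, 5-FU 1 and 3, combination 1 and 2), and was -0.385 with library size alone. RRM2B was the gene called higher: chloroquine added 0.51 with 5-FU against a value of 0.16 without it, an interaction of 0.35 ± 0.094 (adjusted p = 0.0086). With library size alone the RRM2B value was 0.212 and not called, and it was 0.40 in the 8 libraries and 0.24 in the 5.

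The other 5 genes had interactions that did not pass the test, which does not show that they are 0. The values were -0.075 ± 0.14 for GADD45A (adjusted p = 0.727), -0.19 ± 0.096 for BTG2 (adjusted p = 0.135), -0.22 ± 0.13 for PLK2 (adjusted p = 0.177), -0.062 ± 0.17 for PHLDA3 (adjusted p = 0.814) and 0.048 ± 0.11 for ZMAT3 (adjusted p = 0.763). BTG2 was called with library size alone (-0.328) and the 10 CPM filter (-0.278), PLK2 with library size alone (-0.362), and GADD45A in the 5 libraries (-0.233). With library size alone 32.0% of the interaction calls over all genes were upward, against 51.6% with TMM, and the median of all genes shifted by -0.139. Set against the summed log2 changes of the 2 single drugs, the combination stood at 1.49 against 2.56 for DDB2 and at 1.27 against 2.08 for PLK3. It stood at 0.95 against 0.60 for RRM2B, at 1.51 against 1.46 for ZMAT3, at 1.76 against 1.83 for GADD45A and at 2.06 against 2.12 for PHLDA3. For BTG2 it was 1.24 against 1.43, for PLK2 0.98 against 1.20, for XPC 0.11 against 0.44 and for POLH 0.42 against 0.67. Only RRM2B and ZMAT3 thus lay above the sum.

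**Figure D3:**
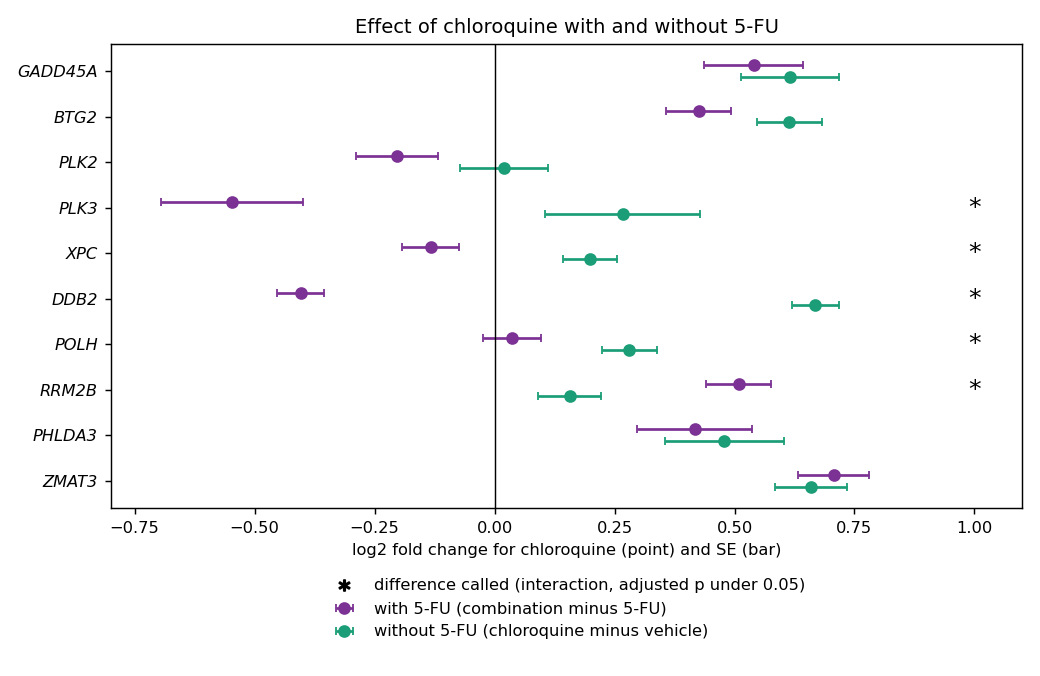
Log2 effect of chloroquine on each of the 10 genes with 5-FU (combination against 5-FU, upper symbol) and without 5-FU (chloroquine against vehicle, lower symbol), with standard errors. A star marks an interaction with an adjusted p under 0.05 in edgeR's quasi-likelihood test. DDB2 lies at -0.40 with 5-FU and 0.67 without it, RRM2B at 0.51 with and 0.16 without, and ZMAT3 at 0.71 with and 0.66 without.

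The levels of the 10 genes across the 13 libraries were compared by Pearson's r of log2 CPM, as a description, since the libraries share treatments and depth. Over the 45 pairs r ran from 0.214 (XPC and RRM2B) to 0.981 (BTG2 and ZMAT3), with a median of 0.847, and the lowest value without XPC was 0.674. GADD45A and PHLDA3 had 0.976, PLK3 and DDB2 had 0.957, and PLK2 and PLK3 had 0.924. Among 11184 other genes, the one most like each gene was TSC22D3 for GADD45A (0.990), YPEL5 for BTG2 (0.982), FLRT3 for PLK2 (0.988), APOE for PLK3 (0.987) and PTK2B for XPC (0.949). It was YPEL3 for DDB2 (0.993), KHNYN for POLH (0.981), CASC9 for RRM2B (0.987), CLU for PHLDA3 (0.994) and MOXD1 for ZMAT3 (0.988).

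Relatives of the 10 genes did not all move with them. GADD45B, a paralog of GADD45A, rose against vehicle by 2.06 ± 0.067 in combination, 2.69 ± 0.066 in 5-FU and 0.50 ± 0.075 in chloroquine, so that, unlike GADD45A, it was lower in combination than in 5-FU (-0.64 ± 0.062). GADD45G was called higher in the 3 treatments from low counts, 19 to 30 in combination, 10 to 15 in 5-FU, 9 to 16 in chloroquine and 1 to 4 in vehicle libraries, of which the 5-FU call was lost in the 5 libraries and the chloroquine call in the 8. PLK1, the mitotic kinase, averaged 112 ± 4.57 CPM in combination, 136 ± 19.1 in 5-FU and 128 ± 3.02 in chloroquine (SD, n = 3 each) and 226 ± 5.73 in vehicle (SD, n = 4), changes of -1.01 ± 0.074, -0.74 ± 0.073 and -0.83 ± 0.074 (all called), whereas PLK2 and PLK3 rose with 5-FU. PLK4, the centriole kinase, fell in combination (-0.71 ± 0.080) and 5-FU (-0.67 ± 0.080) and had -0.08 in chloroquine, not called. PLK5 averaged 1.97 CPM in combination, 3.65 in 5-FU and 1.92 in chloroquine, against 1.11 in vehicle (15 to 33 counts). It was called higher in combination (0.82), though not in the 5 libraries (0.65). The call in chloroquine (0.78) was lost in the 8 (0.75) and in the 5 libraries (0.82). PHLDA2, the paralog of PHLDA3, was higher by 1.89 ± 0.19, 1.01 ± 0.20 and 1.20 ± 0.20 in combination, 5-FU and chloroquine. ZMAT1 was called higher in each treatment from 19 to 26, 29 to 37 and 6 to 18 counts, against 2 to 6 in vehicle, the chloroquine call being lost in the 8 libraries (0.43). BTG1 rose by 0.41 ± 0.058 in combination and 0.16 ± 0.058 in 5-FU, the 5-FU call being lost in the 8 libraries (0.13). Of the 14 paralogs tested, 9 were called higher and 2 lower in combination (median 0.46), 6 and 2 in 5-FU (0.13), and 7 and 3 in chloroquine (0.14). The shares of all genes called higher and lower were 28.1% and 27.2%, 30.8% and 29.5%, and 20.3% and 19.1%. Fewer paralogs were called in chloroquine in the 8 libraries (median 0.17). Fewer were called higher and more lower in 5-FU in the 8 libraries (0.11) and in combination in the 5 (0.46).

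RRM2, the S-phase small subunit of ribonucleotide reductase, moved against its p53-inducible counterpart RRM2B. RRM2 averaged 181 ± 6.72 CPM in combination, 233 ± 18.2 in 5-FU and 314 ± 11.9 in chloroquine (SD, n = 3 each), against 334 ± 3.69 in vehicle (SD, n = 4). It fell against vehicle in combination (-0.88 ± 0.053) and 5-FU (-0.52 ± 0.053) and had -0.09 in chloroquine, not called, while the large subunit RRM1 fell in the 3 treatments (-0.24 ± 0.040, -0.19 ± 0.040 and -0.13 ± 0.040), calls that were all lost with library size alone (-0.095, -0.0014 and -0.032), the chloroquine call also in the 8 libraries (-0.086). In combination RRM2B and RRM2 thus had log2 changes of 0.95 and -0.88. Over the 11 genes of nucleotide supply, 2 were called higher and 3 lower in combination (median -0.050), 4 and 5 in 5-FU (-0.16), and 1 and 4 in chloroquine (-0.13), which turned to 3 and 1, 4 and 2, and 2 and 0 with library size alone. In the 8 libraries 0 of the 11 were called in either direction in chloroquine. Over all genes, 28.1% were called higher and 27.2% lower in combination, 30.8% and 29.5% in 5-FU, and 20.3% and 19.1% in chloroquine. The 3 of 11 called lower in combination are close to that share.

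**Figure D4:**
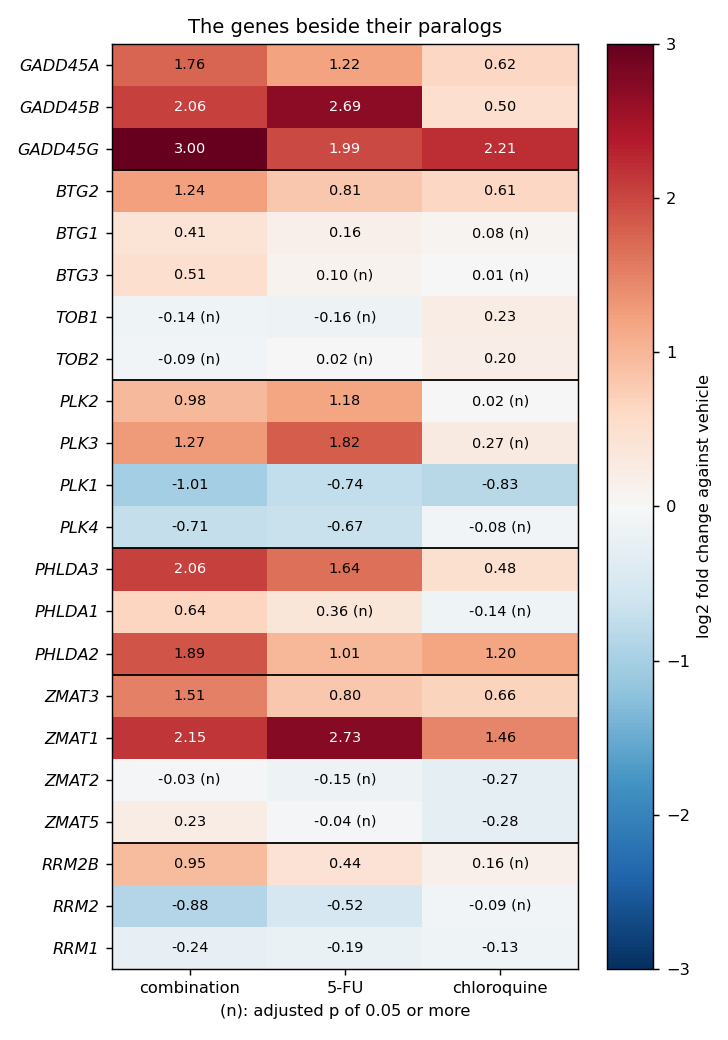
Heat map of log2 fold changes against vehicle in combination, 5-FU and chloroquine for genes of the GADD45, BTG and TOB, PLK, PHLDA, ZMAT and ribonucleotide reductase families, with the value in each cell and (n) where the adjusted p was 0.05 or more. PLK5 is not shown. Within families the directions differ: PLK1 has -1.01 in combination beside 1.27 for PLK3, and RRM2 has -0.88 beside 0.95 for RRM2B.

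Other genes of nucleotide excision repair were called lower more often than higher with TMM scaling. Of 24 other genes of nucleotide excision repair tested, 6 were called higher and 11 lower in combination (median -0.16), 3 and 13 in 5-FU (-0.16), and 1 and 9 in chloroquine (-0.080). With library size alone the counts were 9 higher and 9 lower in combination, 7 and 8 in 5-FU, and 4 and 6 in chloroquine, and in the 8 libraries chloroquine had 1 higher and 4 lower. Over all genes the shares called lower were 27.2% in combination, 29.5% in 5-FU and 19.1% in chloroquine. LIG1, a DNA ligase, fell by 1.07 on the log2 scale in combination (-1.07 ± 0.056), and ERCC2, a helicase of TFIIH, had -0.97 ± 0.092, while GTF2H1 (0.42 ± 0.068) and ERCC4 (0.41 ± 0.059) rose. DDB1, the partner of DDB2 in the damage-binding complex, fell in combination (-0.36 ± 0.046), 5-FU (-0.36 ± 0.046) and chloroquine (-0.12 ± 0.046), the last not called with library size alone (-0.028) or in the 8 libraries (-0.18). RAD23B, a partner of XPC, fell by 0.61 on the log2 scale in 5-FU (-0.61 ± 0.046) and had -0.42 ± 0.046 in chloroquine, also called. In combination RAD23B averaged 276 ± 10.8 CPM (SD, n = 3), also below the 356 ± 6.99 CPM of vehicle (SD, n = 4). Of 13 translesion genes beside POLH, 3 were called higher and 4 lower in combination (median -0.050), 2 and 4 in 5-FU (-0.14), and 1 and 3 in chloroquine (-0.0063), and with library size alone the direction of the balance turned (5 and 2 in combination, 5 and 2 in 5-FU, 4 and 1 in chloroquine). In the 8 libraries the counts were 3 and 3 in combination, 2 and 6 in 5-FU, and 0 and 2 in chloroquine. PRIMPOL, a primase that restarts stalled forks, had the largest rise of that list in combination (0.91 ± 0.076) and SHPRH, a ubiquitin ligase for PCNA, the largest fall (-1.22 ± 0.098).

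Of the 17 genes listed as binding partners or substrates of the 10 proteins, more were called lower than higher in each treatment. In combination 1 was called higher and 9 lower (median -0.24), in 5-FU 1 and 12 (-0.35), and in chloroquine 0 and 9 (-0.12). With library size alone these counts were 3 and 8, 3 and 9, and 2 and 5, and in the 8 libraries chloroquine had 0 and 4. Of all genes, 27.2% were called lower in combination, 29.5% in 5-FU and 19.1% in chloroquine. MAP3K4, the kinase bound by GADD45 proteins, fell by 0.81 in combination (-0.81 ± 0.052), and PRMT1, the arginine methyltransferase bound by BTG proteins, likewise (-0.81 ± 0.073). CCNB1, the cyclin of CDK1, fell in combination (-0.65 ± 0.044) and chloroquine (-0.64 ± 0.044). In 5-FU it averaged 248 ± 8.66 CPM (SD, n = 3), also below the 347 ± 12.4 CPM of vehicle (SD, n = 4). CDK1 itself was called in none of the 3 treatments. CNOT8, a deadenylase subunit, was the partner called higher in combination (0.26 ± 0.050), and AKT1, whose lipid binding PHLDA3 blocks, the one in 5-FU (0.22 ± 0.076), a call lost in the 5 libraries (0.092). In the interaction 11 of the 17 partners were called higher and 1 lower (5 and 2 with library size alone, 6 and 1 in the 8 libraries), against 20.6% of all genes higher and 19.3% lower.

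Other p53 targets were also mostly called higher against vehicle. Of 24 tested, 23 were called higher and 0 lower in combination (median 0.92), 21 and 0 in 5-FU (0.62), and 12 and 1 in chloroquine (0.23). The shares of all genes called higher and lower were 28.1% and 27.2%, 30.8% and 29.5%, and 20.3% and 19.1%. CDKN1A, the p21 inhibitor of cyclin-dependent kinases, rose by 2.59 ± 0.069 in combination, 2.19 ± 0.068 in 5-FU and 1.15 ± 0.070 in chloroquine, and TP53I3, an oxidoreductase, was the gene called lower in chloroquine (-0.44 ± 0.12), though in neither the 8 (-0.39) nor the 5 libraries alone (-0.43). GDF15 had the largest rise of the list in combination and in 5-FU. It averaged 15.6 CPM in combination, 26.5 in 5-FU and 0.68 in chloroquine, against 0.41 in vehicle (3 to 12 counts). When chloroquine was added to 5-FU, 12 of the 24 were called higher and 4 lower, against 20.2% and 18.3% of all genes. As with the 10 genes, the calls went in both directions: TIGAR, a regulator of sugar metabolism, had 0.67 ± 0.11 and PIDD1, a death-domain protein, -1.02 ± 0.11. In the interaction 5 were called higher and 11 lower (1 and 12 with library size alone), against 20.6% and 19.3% of all genes. The median was -0.18, and -0.23 in the 8 libraries, where fewer were called. The largest falls were those of PIDD1 (-1.72 ± 0.16) and GDF15 (-1.45), the GDF15 call being lost in the 8 libraries (-1.42) and in the 5 (-0.97). CDKN1A, named above, had -0.75 ± 0.098.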

How the data were processed

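Total RNA was purified on columns and made into libraries with a directional kit, per the labels' protocols. The deposited file gives, for each gene symbol, unnormalised read counts in the 13 libraries. Per the submitters' processing notes DESeq was used and the build was GRCm38, although the table holds human symbols; no source used here names the aligner, annotation or strand setting. The deposited counts were tested in R 4.3.3 with edgeR 4.0.16 (filterByExpr by group, TMM, quasi-likelihood F test) with all 13 libraries in 1 fit, 9 residual degrees of freedom and adjustment by Benjamini and Hochberg over 19514 genes in each of 7 comparisons. The filter kept at least 99.8359% of each library's counts, and 20102 genes had no count. CPM were computed here from the deposited counts with TMM-scaled library sizes, and log2 CPM with a prior count of 2. The standard error (SE) of a log2 fold change was derived from the test, as its absolute value divided by the square root of the F statistic. The 10 genes and the gene lists (other p53 targets, nucleotide excision repair, translesion synthesis, nucleotide supply, paralogs, partners, and markers of other tissues) were chosen with earlier results of these data known. All 10 genes are reported, and of each list up to 2 called genes per direction and comparison with the largest changes. Any of the paralogs and partners may be named, and a gene named for 1 comparison may also be given in others. The gene most like each of the 10 has the highest Pearson r among tested genes of mean log2 CPM of at least 1.

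Alternatives were the size factors of DESeq2 1.42.0, library size alone, DESeq2's Wald test, limma-voom (limma 3.58.1), no filter, a filter at 10 CPM in 3 libraries, the compared groups alone, a replicate block and leaving out each library. Added after seeing the data were the 8 libraries under 100 COL1A2 counts, the other 5, and a term for this difference. Deviations of same-numbered libraries from their group means correlated at 0.341, 0.743 and 0.339 between combination and 5-FU. Other pairs of groups did not reach 0.1 throughout. In every pair of groups the correlation was positive where both libraries were of the 8 or both of the 5, and negative where not. It was 0.521 for combination 3 and chloroquine 3 and -0.441 for combination 1 and chloroquine 1. Combination 2 and 5-FU 2 are both among the 5. Pairing by number thus cannot be told apart from this difference, and the replicate block is an alternative setting only. No libraries agreed within sampling noise. Promoter windows came from RefSeq.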

Additional observations from a re-analysis of the deposited data

Results flagged for a closer look

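For 5 of the 10 genes the effect of chloroquine with 5-FU differed from its effect without 5-FU by a test of the difference itself (edgeR's quasi-likelihood test of the interaction, adjusted over 19514 genes). DDB2 had an interaction of -1.07 on the log2 scale: its level was lower in each combination library than in each 5-FU library, and higher in each chloroquine library than in each vehicle library. PLK3 had -0.814, with the same split between combination and 5-FU libraries but overlapping chloroquine and vehicle libraries. XPC had -0.332 and POLH -0.245, and for RRM2B the value was 0.352, the only positive one called. The DDB2 and XPC calls were kept under every setting that gave a value, and the calls of PLK3, POLH and RRM2B were each lost under at least 1. For the CPM of each of the 10 genes, no library of the vehicle group lay far enough from the other 3 to be picked out, although vehicle 4 stands apart in COL1A2 counts, and groups of 3 were not tested.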

How the results depend on the processing

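Of the 70 results (10 genes in 7 comparisons), 53 were called, and 43 of these kept their call and direction under every setting that gave a value; no called result changed direction. The 10 calls lost under some setting are given with their values beside the results. Results that changed direction were all uncalled: XPC in combination against vehicle (-0.027 in the 5 libraries), PLK2 in chloroquine against vehicle (-0.138 in the 5 libraries, -0.0424 with the term for the kind of library, -0.0349 to 0.0776 leaving out 1 library), POLH in combination against 5-FU (-0.00765 with library size alone, -0.00073 with the 10 CPM filter, -0.00614 to 0.0833 leaving out 1 library) and ZMAT3 in 5-FU against chloroquine (-0.0401 in the 8 libraries). In the interaction they were GADD45A (-0.15 to 0.0446) and PHLDA3 (-0.169 to 0.136) leaving out 1 library, and ZMAT3 (-0.0912 with library size alone, -0.0412 with the 10 CPM filter, -0.136 in the 8 libraries, -0.00753 to 0.159 leaving out 1 library); the cause was not tested. Over all genes, chloroquine against vehicle gave 4396 calls in the 8 libraries against 7682 in the 13. The number of calls in the 5 libraries was not below that in the 13, and the cause of the difference was not tested. PLK3 gave no value with the 10 CPM filter. The replicate block left 4 of the 10 genes called in the interaction against 5, the POLH value being -0.22, and changed no other call of the 10. The 8 libraries leave 1 chloroquine library, and the 5 leave 1 library in every group but chloroquine, with 4 and 1 residual degrees of freedom; a lone library is then assumed to vary like those of the other groups. PLK3, at 43 to 235 counts, had the largest standard errors of the 10.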
